A study of Mus musculus with 17 samples.

Results

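The peroxisomal beta-oxidation enzymes are described here as 9 genes, taken by symbol from a table of 24676 genes: Acox2, Ehhadh, Hsd17b4, Acaa1a, Acaa1b, Scp2, Ech1, Eci2 and Decr2. All 9 were in the table once, and all 9 passed the filter on low values (10 or more normalized counts in 4 or more libraries), as did 13379 genes in all. Peroxisomes shorten very-long-chain, branched-chain and dicarboxylic fatty acids, and the side chain of bile acid precursors, by rounds of oxidation, hydration, dehydrogenation and thiolytic cleavage. An acyl-CoA oxidase opens each round and passes electrons to oxygen, a multifunctional enzyme performs the middle steps, a thiolase releases acetyl-CoA or propionyl-CoA, and auxiliary enzymes rearrange double bonds. In rodent liver several of these genes are textbook targets of the fatty acid receptor PPARA.

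Liver RNA was sequenced in 17 libraries from male mice of mixed strain, 11 weeks old by the labels, all with floxed Gata4 alleles (Gata4 fl/fl) and all given adeno-associated virus of serotype 8 (AAV8). By the labels the virus was given at 10 weeks of age, 1 week before gavage, so genotype comparisons refer to that time. The 4 groups were Gata4LKO with GW3965 (n = 5), control with GW3965 (n = 4), Gata4LKO with vehicle (n = 4) and control with vehicle (n = 4). Gata4LKO mice had received AAV8 that carries Cre under Tbg, a promoter active in hepatocytes, and control mice an empty AAV8, so Cre expression and loss of Gata4 cannot be told apart. GW3965 is a synthetic ligand that activates liver X receptors (LXR). Treated mice were gavaged with 40 mg/kg of it, in canola oil, once 17 h and once 8 h before they were killed, vehicle mice with dimethylsulfoxide in the same oil, and all mice were fasted for 4 h. Groups follow the sample titles, since the treatment field contradicts the title in 8 libraries, those of control with GW3965 and Gata4LKO with vehicle. Whether every library stems from a separate mouse is not stated, so p-values measure the spread between libraries, which may be technical.

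Values are the authors' normalized counts, the reads of a gene divided by a size factor of its library. Reads assigned to genes numbered 11.8 to 22.05 M per library. Mitochondrially encoded genes supplied 15.6% to 32.6% of the values in 5 libraries (2 of Gata4LKO with GW3965, 2 of control with GW3965 and 1 of control with vehicle) and 6.06% to 7.26% in the remaining 12. Transcripts of Gm5345 were present in 5 of 5 Gata4LKO GW3965 livers, 2 of 4 control GW3965 livers, 0 of 4 Gata4LKO vehicle livers and 4 of 4 control vehicle livers. Gata4, the targeted gene, had 219 ± 41.2 normalized counts in livers labelled Gata4LKO and 221 ± 44.1 in control livers with GW3965 (SD, n = 5 and 4), and 194 ± 44.2 against 153 ± 27.3 with vehicle (SD, n = 4 each). The whole-gene count of Gata4 did not separate the genotypes in either treatment. The labels do not say which exons are floxed, and reads outside them would still be counted, so this count does not check the deletion, and "Gata4LKO" is used below as the label of a group. The LXR targets Abca1 and Srebf1 followed the titles: Abca1 averaged 7048 and 8819 normalized counts in Gata4LKO and control livers with GW3965, against 3921 and 3738 with vehicle. Srebf1 averaged 4330 and 6442 with GW3965, against 1409 and 1311 with vehicle. The 7 hepatocyte markers were all above 0 in every library, with summed normalized counts of 1445420 to 1799550, 1592370 to 2345420, 1541360 to 1768230 and 1921650 to 2077240 in Gata4LKO GW3965, control GW3965, Gata4LKO vehicle and control vehicle livers.

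With GW3965, Ehhadh and Acaa1b mRNA rose several-fold in both genotypes, while none of the other 7 enzymes passed the test in either. Ehhadh encodes the L-bifunctional enzyme (enoyl-CoA hydratase and 3-hydroxyacyl-CoA dehydrogenase), and Acaa1b one of a pair of mouse 3-ketoacyl-CoA thiolases. In Gata4LKO livers 2 of 9 enzymes were called higher and 0 lower by limma at an adjusted p below 0.05, where 0.202% of all 13379 genes were called higher and 0.247% in either direction. In control livers it was likewise 2 of 9 higher and 0 lower, where 0.605% of all genes were called higher and 0.792% in either direction.

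Ehhadh had 20832, 17895, 45172, 32751 and 16347 normalized counts in Gata4LKO livers given GW3965. It had 13521, 59114, 44636 and 18514 in control livers given GW3965. With vehicle, it had 5093, 6000, 5451 and 4981 in Gata4LKO livers and 6093, 4265, 4204 and 4384 in control livers. Every GW3965 library lay above every vehicle library of either genotype (within a genotype the groups were so separated for 2.91% of all genes in Gata4LKO and 3.13% in control livers), and the values were far more spread among treated livers than among vehicle livers. The coefficient of variation was 45.9% and 63.7% in Gata4LKO and control livers with GW3965, against 8.53% and 19.2% with vehicle. In Gata4LKO livers GW3965 raised Ehhadh by 2.20 ± 0.36 on the log2(normalized count + 1) scale (SE; 95% interval 1.44 to 2.95; adjusted p = 0.0122, limma), which is 4.58-fold. In control livers the rise was 2.61 ± 0.38 (SE; 95% interval 1.81 to 3.40; adjusted p = 0.00333, limma), or 6.09-fold. These differences ranked 14 and 11 from the top of 13379 genes in Gata4LKO and control livers. Their SEs and intervals rest on 1 spread per gene shared by all groups, so the wider spread of treated livers is averaged with that of vehicle livers.

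Acaa1b had 18835, 17097, 33516, 23091 and 16967 normalized counts in Gata4LKO livers given GW3965. It had 14571, 36286, 28379 and 15738 in control livers given GW3965. With vehicle it had 6250, 7979, 5089 and 4860 in Gata4LKO livers and 6978, 3310, 3205 and 3202 in control livers. Here too every GW3965 library lay above every vehicle library, and the highest treated livers were those that were highest for Ehhadh. The log2 difference was 1.83 ± 0.29 in Gata4LKO livers (SE; 95% interval 1.22 to 2.45; adjusted p = 0.0122, limma) and 2.49 ± 0.31 in control livers (95% interval 1.84 to 3.14; adjusted p = 0.00102), or 3.57-fold and 5.62-fold. In the authors' deposited tables Ehhadh and Acaa1b were likewise the 2 of 9 enzymes past an adjusted p of 0.05 in each GW3965 comparison, with log2 fold changes of 2.31 and 1.86 in Gata4LKO livers and 2.84 and 2.51 in control livers.

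**Figure D1:**
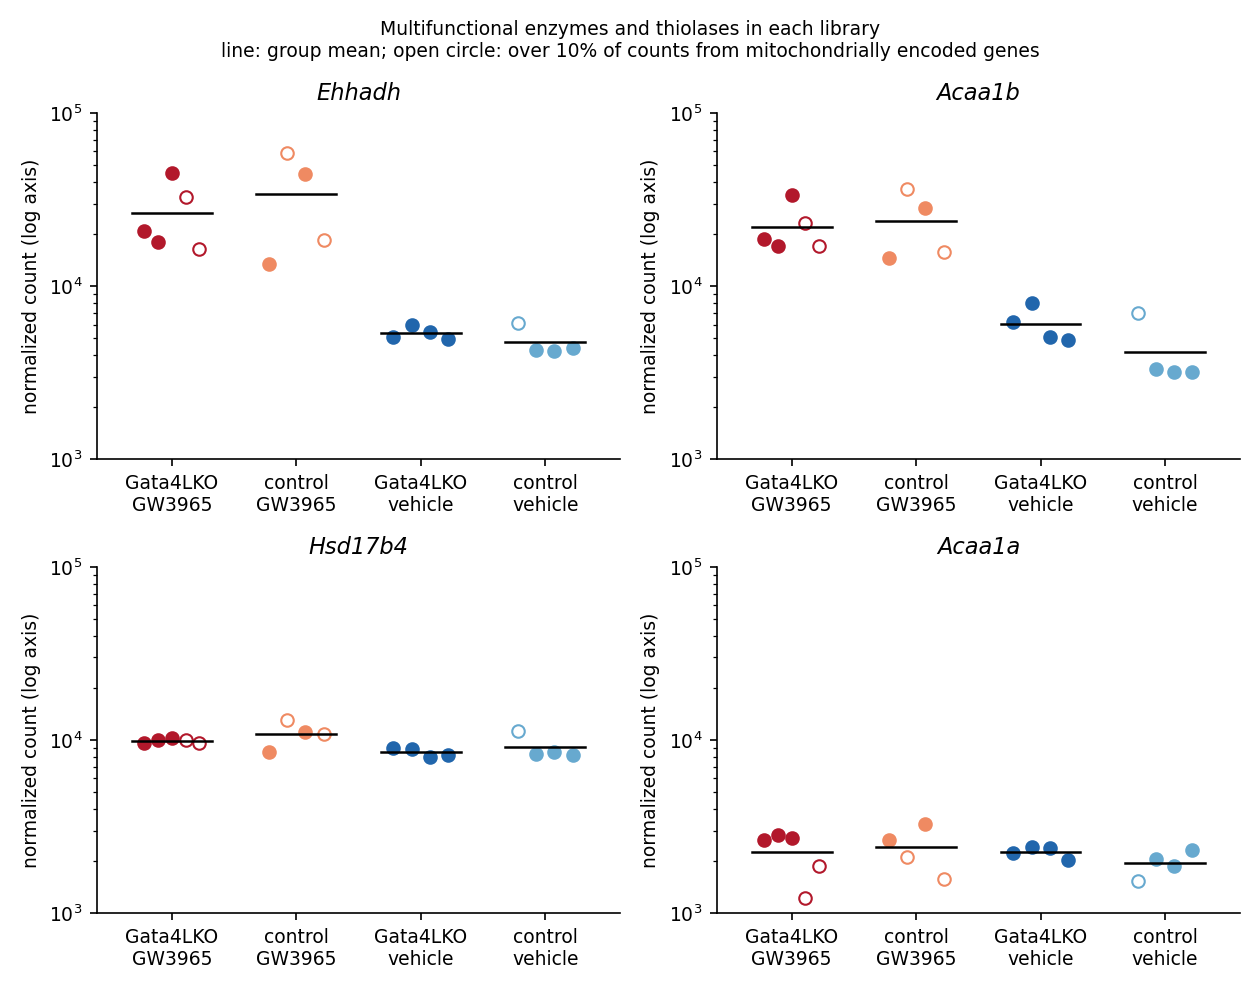
Normalized counts (log axis) of Ehhadh, Acaa1b, Hsd17b4 and Acaa1a in each of 17 libraries, by group; each circle is a library, the line is the group mean, and open circles are libraries with over 10% of counts from mitochondrially encoded genes. The 9 GW3965 libraries lie above the 8 vehicle libraries for Ehhadh (13521 to 59114 against 4204 to 6093) and for Acaa1b, whereas GW3965 and vehicle libraries overlap for Hsd17b4 (8492 to 13033 against 7922 to 11286) and Acaa1a.

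The Gata4LKO comparison is fully split by Gm5345, which was present in all GW3965 and no vehicle livers of that genotype. With Gm5345 presence as a term Ehhadh was higher by 2.17 and Acaa1b by 1.96 in Gata4LKO livers. Neither passed (adjusted p = 0.912 and 0.750, limma), and 1 gene in all was called. Within a group Gm5345 varied only among control GW3965 livers (present in 2 of 4), so the term was estimated from those. This fit therefore cannot tell Gm5345 from GW3965 in Gata4LKO livers. Ehhadh also missed the threshold in Gata4LKO livers without Gata4LKO vehicle replicate 5 or replicate 6 (adjusted p = 0.0512 and 0.0619), and in control livers when only the control libraries were fitted (adjusted p = 0.0504).

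Ehhadh and Acaa1b varied together from liver to liver under GW3965, and no other pair of the 9 enzymes passed. After subtracting group means, they correlated across the 9 GW3965 livers with a Pearson r of 0.986 and a Spearman rho of 1 (exact permutation test of libraries within their group, two-sided, p = 0.000347 for each, the smallest its 2880 permutations can give; Benjamini-Hochberg adjusted over 72 tests, 0.025 for each). Without the 2 libraries farthest from the median of Ehhadh, r was 0.985. Of the 36 enzyme pairs in GW3965 livers, 26 had a positive r (median 0.30) and 1 passed (8 at an unadjusted p under 0.05). The next were Acaa1a with Ech1 (r = 0.913) and Acaa1a with Eci2 (0.876), both at an adjusted exact permutation p of 0.05, which is not below the threshold. Their Spearman rho was 0.850 and 0.883 (adjusted exact permutation p = 0.265 for each). Acaa1a and Ech1 were also both split by the mitochondrial share in these livers, as given below. In the 8 vehicle livers 21 of 36 pairs had a positive r (median 0.20) and 0 passed (3 at an unadjusted p under 0.05). There Ehhadh and Acaa1b had r = 0.937 (exact permutation p = 0.0278, adjusted 0.25) and rho = 0.810 (adjusted exact permutation p = 0.354), and r was 0.258 without the 2 farthest livers, so the relation there rests on those libraries. Among GW3965 livers the mitochondrial share splits the libraries 4 to 5, too few in each for a correlation of their own.

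Over all 17 libraries the 5 genes whose log2 values were most like those of Ehhadh included Abca1 (Pearson r = 0.951), Abcg8 (0.941), Hsd17b11 (0.939) and Mat2a (0.937). Abca1 and Abcg8 encode sterol transporters and are textbook LXR targets. For Acaa1b, 3 of the 5 most alike genes were in the pathway lists used here; for Acaa1a this held for 2, for Eci2 for 1, for Ech1 for 1 (a macrophage marker) and for the other 4 enzymes for 0. All these coefficients share the treatment difference and the libraries, and they are given as a description.

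The promoters of the responding pair and of the thiolase most similar to Acaa1b are shown because Ehhadh and Acaa1b moved together and Acaa1a did not pass the test. Each sequence runs 5′ to 3′ on the gene's strand from 250 bases before to 50 bases after the start in RefSeq's GRCm38.p6 annotation. Capitals mark CCAAT in either orientation (CCAAT or ATTGG). The windows are chr16:21787785-21788084 on the minus strand (Ehhadh), chr9:119157044-119157343 on the minus strand (Acaa1b) and chr9:119341044-119341343 on the plus strand (Acaa1a).
Ehhadh: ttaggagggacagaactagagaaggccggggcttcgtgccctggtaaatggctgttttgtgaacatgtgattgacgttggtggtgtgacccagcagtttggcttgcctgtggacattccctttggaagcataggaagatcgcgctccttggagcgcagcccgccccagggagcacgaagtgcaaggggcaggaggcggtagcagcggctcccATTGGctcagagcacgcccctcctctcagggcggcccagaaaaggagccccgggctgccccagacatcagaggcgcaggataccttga
Acaa1b: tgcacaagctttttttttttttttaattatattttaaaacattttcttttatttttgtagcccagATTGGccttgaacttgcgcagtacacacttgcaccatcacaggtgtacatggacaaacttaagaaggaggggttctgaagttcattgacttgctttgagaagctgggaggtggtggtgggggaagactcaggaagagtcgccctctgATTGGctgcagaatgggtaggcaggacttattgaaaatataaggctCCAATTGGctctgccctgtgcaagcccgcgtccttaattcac
Acaa1a: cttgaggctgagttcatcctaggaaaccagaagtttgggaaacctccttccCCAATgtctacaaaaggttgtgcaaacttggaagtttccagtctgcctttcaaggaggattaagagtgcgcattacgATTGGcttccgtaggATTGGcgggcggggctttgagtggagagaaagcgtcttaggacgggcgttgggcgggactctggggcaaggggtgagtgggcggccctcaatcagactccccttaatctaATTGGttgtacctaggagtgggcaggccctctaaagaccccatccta
Searched on both strands, CCAAT occurred 4 times in the Acaa1b window, where 1 pair overlaps in CCAATTGG, 4 times in the Acaa1a window and 1 time in the Ehhadh window. At least 1 copy was in 37.4% of 32851 promoters of the same length, and at least 4 copies in 1.06%. The nuclear receptor half-site AGGTCA, which 16.3% of promoters hold on either strand, was in none of the 3 windows. Of the 8 enzymes with a window, Scp2 alone held the half-site exactly. No window held an exact DR1, a head-to-tail pair of AGGTCA with 1 base between, the kind of site PPAR binds with RXR. None held an exact DR4, the same pair with 4 bases between, the kind LXR binds with RXR. An exact DR1 is in 0.0396% and an exact DR4 in 0.0152% of promoters. Bases outside these windows were not searched, so sites farther from the start are not covered. The Ehhadh window was 60.7% G and C with 14 CpG, the Acaa1b window 43.7% with 4 and the Acaa1a window 53.3% with 10.

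Acaa1b and Acaa1a are neighbours on mouse chromosome 9, 183 kb apart (mm10, GENCODE M21): Acaa1b lies at chr9:119148023-119157093 on the minus strand and Acaa1a at chr9:119339676-119350299 on the plus strand. Their principal transcripts matched at 92.9% of 1637 aligned bases, and their promoter windows at 62.7% of 236. Of the 50-base windows in the Acaa1a transcript 34.0% also occur in Acaa1b, so the authors' counting could have split or dropped reads between them. Exons of Myd88 and Dlec1 overlap those of Acaa1a (290 bases) and Acaa1b (224 bases) on the opposite strand, and the sources used here do not give the strand setting of the counting. Acaa1a had 2629, 2817, 2730, 1229 and 1879 normalized counts in Gata4LKO livers given GW3965 and 2630, 2117, 3268 and 1582 in control livers given GW3965. It had 2234, 2406, 2374 and 2015 in Gata4LKO vehicle livers and 1531, 2041, 1883 and 2323 in control vehicle livers. The groups overlapped throughout. The GW3965 difference of Acaa1a was -0.06 in Gata4LKO livers (95% interval -0.54 to 0.42; adjusted p = 0.916) and 0.27 in control livers (95% interval -0.24 to 0.77; adjusted p = 0.877). The ratio of Acaa1b to Acaa1a, each per kb of its principal transcript, was 6.33 to 19.6 in Gata4LKO and 5.78 to 17.9 in control livers with GW3965, against 2.24 to 3.46 in Gata4LKO and 1.44 to 4.75 in control livers with vehicle. The size of this ratio rests on the transcript assumed. Per kb of all annotated exons, Acaa1b and Acaa1a averaged 11163 and 511 in Gata4LKO and 12102 and 544 in control livers with GW3965. With vehicle they averaged 3081 and 511 in Gata4LKO and 2127 and 441 in control livers.

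Hsd17b4 encodes the D-bifunctional enzyme, which handles bile acid precursors and branched-chain substrates and catalyses the same middle steps as Ehhadh with the opposite stereochemistry. It lies at chr18:50128201-50196269 on the plus strand, and Ehhadh at chr16:21761287-21787807 on the minus strand (mm10). Hsd17b4 had 9617, 10061, 10294, 9934 and 9635 normalized counts in Gata4LKO livers given GW3965, against 8957, 8915, 7922 and 8226 in Gata4LKO livers given vehicle. All 5 treated livers were above all 4 vehicle livers, as for 2.91% of all genes in that direction, but the log2 difference was 0.22 (95% interval -0.03 to 0.48; adjusted p = 0.458, limma). In control livers Hsd17b4 had 8492, 13033, 11045 and 10877 normalized counts with GW3965 and 11286, 8274, 8564 and 8162 with vehicle, which overlap (0.26, 95% interval -0.01 to 0.53, adjusted p = 0.604). Within the Gata4LKO GW3965 group Hsd17b4 varied by 2.91% (coefficient of variation), the least of any enzyme in that group.

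The order of the multifunctional pair differed between treatments. Per kb of principal transcript, Ehhadh stood at 1.53 to 3.95 times Hsd17b4 in Gata4LKO livers and 1.43 to 4.08 times in control livers with GW3965. With vehicle, the ratio was 0.512 to 0.620 in Gata4LKO livers and 0.442 to 0.486 in control livers. Ehhadh was thus the more abundant of the pair in each of 9 GW3965 libraries and the less abundant in each of 8 vehicle libraries.

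**Figure D2:**
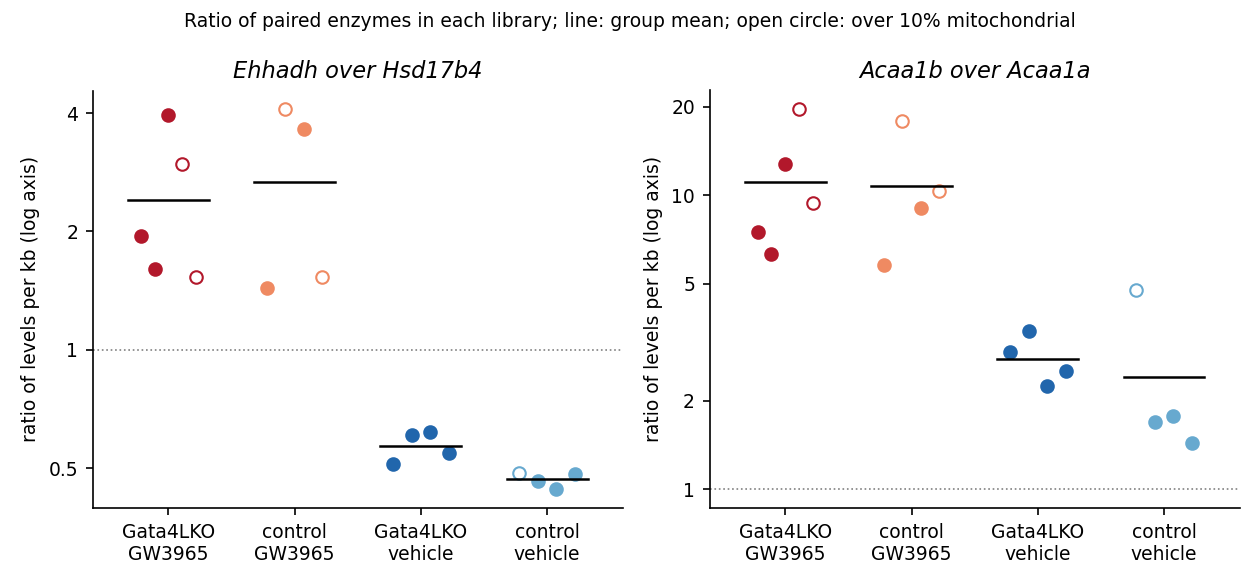
Ratio of Ehhadh to Hsd17b4 and of Acaa1b to Acaa1a in each library, each level per kb of principal transcript (log axis; dotted line, a ratio of 1; line, group mean; open circle, over 10% mitochondrial counts). The Ehhadh ratio is above 1 in every GW3965 library (1.43 to 4.08) and below 1 in every vehicle library (0.442 to 0.620).

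The make-up of the set changed with those 2 genes. Summed per kb over the 9 enzymes, Acaa1b supplied a mean of 27.6% in Gata4LKO and 25.7% in control livers with GW3965, against 11.9% in Gata4LKO and 8.73% in control livers with vehicle. Ehhadh supplied 18.7% in Gata4LKO and 19.7% in control livers with GW3965, against 6.07% in Gata4LKO and 5.76% in control livers with vehicle. The share of Scp2 was 25.9% in Gata4LKO and 28.2% in control livers with GW3965, against 41.1% in Gata4LKO and 45.8% in control livers with vehicle. These shares are descriptions of the values above and were not tested. The levels behind these shares ran from 1281 per kb (Acaa1a) to 12967 per kb (Acaa1b) in Gata4LKO GW3965 livers, and from 1104 (Acaa1a) to 12740 (Scp2) in control vehicle livers. In vehicle livers Ehhadh was the sixth of 9 per kb in both genotypes and in GW3965 livers the third. Of the neighbours in the GW3965 order, Scp2 and Acaa1b differed by less than their spread in both genotypes (11639 ± 1721 and 12967 ± 4114 per kb in Gata4LKO livers, 14571 ± 3672 and 14058 ± 6182 in control livers; SD, n = 5 and 4). With all annotated exons as the length, Scp2 ranked behind Acaa1b and Ehhadh in both GW3965 groups, so these ranks rest on the transcript assumed.

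Acox2 encodes the oxidase of branched-chain and bile acid intermediates and Scp2 the thiolase SCPx, which acts downstream of it on the same substrates; the Scp2 locus also makes the sterol carrier protein SCP2, which gene counts do not separate. Neither passed the test with GW3965. Acox2 lies at chr14:8225511-8259353 and Scp2 at chr4:108043839-108144998, both on the minus strand (mm10). Acox2 had 3521, 3313, 5443, 4357 and 3347 normalized counts in Gata4LKO livers given GW3965 and 2559, 5200, 3884 and 4906 in control livers given GW3965. It had 3343, 3069, 2942 and 4088 in Gata4LKO vehicle livers and 4332, 3922, 5417 and 4198 in control vehicle livers. These ranges overlap in every comparison, and the GW3965 differences were 0.23 in Gata4LKO livers (95% interval -0.17 to 0.64) and -0.15 in control livers (-0.58 to 0.28). Scp2 averaged 30727 ± 4545 and 38468 ± 9693 normalized counts in Gata4LKO and control livers with GW3965 (SD, n = 5 and 4), against 32266 ± 1548 and 33634 ± 7857 with vehicle (n = 4 each). Its differences were -0.08 in Gata4LKO livers (95% interval -0.46 to 0.30) and 0.20 in control livers (-0.20 to 0.60). Of 50-base windows in the Scp2 transcript 41.4% also occur in the pseudogene Scp2-ps2, which had 64.8 to 516 normalized counts.

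The auxiliary enzymes handle double bonds: Ech1 (dienoyl-CoA isomerase) and Eci2 (enoyl-CoA isomerase) move them, and Decr2 is the peroxisomal dienoyl-CoA reductase. They lie at chr7:28825217-28832247 on the plus strand, chr13:34977748-35027096 on the minus strand and chr17:26081208-26090337 on the minus strand (mm10), and Eci2 exons overlap Gm16984 on the opposite strand over 189 bases. In Gata4LKO livers their GW3965 differences were -0.19 for Ech1 (95% interval -0.62 to 0.24), -0.03 for Eci2 (-0.32 to 0.25) and 0.11 for Decr2 (-0.19 to 0.40). In control livers they were 0.49 for Ech1 (0.04 to 0.94; adjusted p = 0.491), 0.36 for Eci2 (0.05 to 0.66; adjusted p = 0.418) and 0.39 for Decr2 (0.08 to 0.69; adjusted p = 0.371). Decr2 had 3669, 4468, 3561, 3544 and 3260 normalized counts in Gata4LKO GW3965 livers, 4397, 3485, 4874 and 3490 in control GW3965 livers, 3660, 3308, 3694 and 3059 in Gata4LKO vehicle livers and 3262, 3224, 2328 and 3659 in control vehicle livers. No adjusted p passed, and GW3965 and vehicle libraries overlapped for all 3 genes in both genotypes. In the same comparison of control livers, the 11 Kupffer cell and macrophage markers all had a positive difference (median 0.49, with 1 called, Cd5l at 1.21, adjusted p = 0.0126, limma, named after its value was seen) and summed to 4239 to 7071 normalized counts with GW3965, against 2429 to 3385 with vehicle. In Gata4LKO livers their sums overlapped, at 4295 to 6381 with GW3965 and 4220 to 5155 with vehicle. A rise of these markers with GW3965 can be more cells or more RNA per cell, which bulk tissue cannot tell apart. This holds for Cd5l too. The part of these markers in the differences of the 3 enzymes was not tested. Of the 9 enzymes 2 had an unadjusted p under 0.05 in Gata4LKO livers (12% of all genes did) and 5 in control livers (8.96% of all genes).

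**Figure D3:**
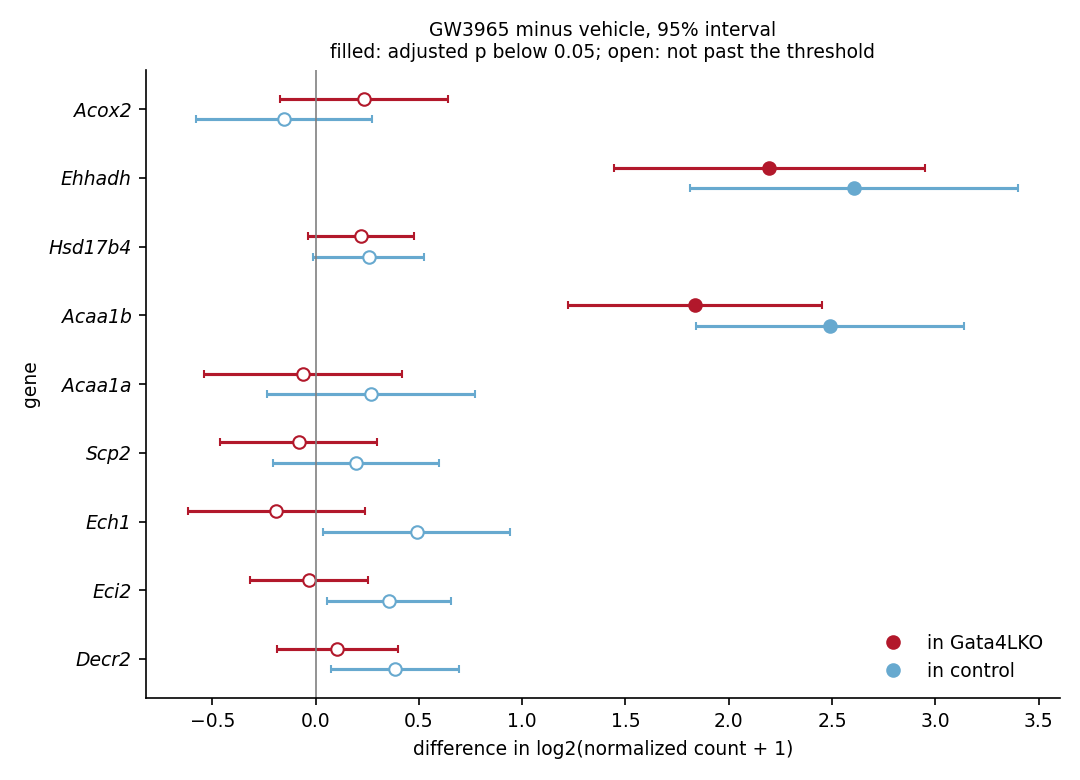
Difference in log2(normalized count + 1) between GW3965 and vehicle for the 9 enzymes, in Gata4LKO (upper of each pair) and control livers; bars are 95% intervals from the limma fit and filled circles passed an adjusted p of 0.05. Ehhadh (2.20 and 2.61) and Acaa1b (1.83 and 2.49) stand apart from the other 7, which lie between -0.19 and 0.49.

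No difference in response between genotypes passed the test. The interaction, the GW3965 difference in Gata4LKO livers minus that in control livers, was called for 0 of 9 enzymes by limma, against 0.0149% of all genes, and for 0 of 9 by edgeR and DESeq2. It was -0.41 for Ehhadh (95% interval -1.51 to 0.68) and -0.65 for Acaa1b (-1.55 to 0.24). A smaller, an equal and a larger response in Gata4LKO livers all lie within these intervals. The estimate was positive for 1 of 9 enzymes, Acox2 (0.39, -0.20 to 0.97), and for 49.4% of all genes, and 1 of 9 had an unadjusted p under 0.05 (Ech1, -0.68, -1.30 to -0.05, adjusted p = 0.997; 4.65% of all genes had one). The 9 estimates come from the same libraries and are not independent of each other. Averaged over genotypes, GW3965 raised Ehhadh by 2.40 ± 0.26 (SE; adjusted p = 7.43e-05) and Acaa1b by 2.16 ± 0.21 (adjusted p = 2.49e-05), and 2 of 9 enzymes passed, both higher, against 1.34% of all genes higher and 1.78% in either direction. Hsd17b4 (0.24, 95% interval 0.05 to 0.43, adjusted p = 0.205) and Decr2 (0.25, 0.03 to 0.46, adjusted p = 0.258) were the nearest of the rest.

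Between genotypes, no enzyme passed the test in either treatment. Limma called 0 of 9 with GW3965, against 0.0598% of all genes, and 0 of 9 with vehicle, against 0.0149%; edgeR and DESeq2 also called 0 of 9 in both. At an unadjusted p under 0.05 there were 0 of 9 with GW3965 (6.47% of all genes) and 2 of 9 with vehicle (6.15%). Averaged over treatments limma called 0 of 9 (0.224% of all genes), with 2 of 9 at an unadjusted p under 0.05 (7.19%). Because whole-gene Gata4 counts did not separate the genotypes, the directions below are those of livers labelled Gata4LKO.

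With vehicle, Ech1 and Eci2 were higher in every library labelled Gata4LKO than in every control library. Ech1 had 3658, 3882, 2730 and 3345 normalized counts in Gata4LKO vehicle livers, against 2573, 2081, 1226 and 2373 in control vehicle livers. Eci2 had 3954, 4254, 3987 and 3938 in Gata4LKO vehicle livers, against 3269, 2827, 2543 and 3623 in control vehicle livers. Groups were separated in this direction for 3% of all genes. This comparison is also fully split by Gm5345, present in no Gata4LKO vehicle liver and in all 4 control vehicle livers. Genotype label and Gm5345 cannot be told apart here. The differences of 0.76 for Ech1 (95% interval 0.31 to 1.22; adjusted p = 0.390) and 0.41 for Eci2 (0.11 to 0.71; adjusted p = 0.573) did not pass. Beside them, the 11 Kupffer cell and macrophage markers all had a positive difference in the same comparison (median 0.57, none called). Their summed normalized counts were 4220 to 5155 in Gata4LKO vehicle livers, against 2429 to 3385 in control vehicle livers, and none was at 0. The 10 lymphocyte and other leukocyte markers summed to 1373 to 2403 in Gata4LKO vehicle livers, against 770 to 1208 in control vehicle livers, with up to 3 of them at 0 in a library and 5 of the 7 tested with a positive difference (median 0.71, none called). The sums of the 7 hepatocyte markers, given above, were lower in every Gata4LKO vehicle liver than in every control vehicle liver, and all 7 had a negative difference (median -0.17, none called). Sums overlapped between these groups for markers of sinusoidal endothelium, of stellate cells and fibroblasts, of cholangiocytes, and of blood, adipose and pancreas. The part of these cell types in the result was not tested. In bulk tissue, a change in the number of cells of a type and a change in RNA per cell cannot be told apart.

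With GW3965, the same 2 genes overlapped between genotypes. Ech1 had 3407, 3018, 3779, 2328 and 2511 normalized counts in Gata4LKO livers and 3134, 2538, 3516 and 2169 in control livers (0.08, 95% interval -0.35 to 0.51). Eci2 had 3923, 4576, 4975, 3135 and 3403 in Gata4LKO livers and 4010, 4008, 4266 and 3336 in control livers (0.02, -0.27 to 0.31). The remaining enzymes also overlapped between genotypes in both treatments (with GW3965 the genotypes did not overlap for 1.96% of all genes). With GW3965 their differences lay between -0.30 (Scp2, -0.68 to 0.08) and -0.03 (Acox2, -0.43 to 0.38), and with vehicle between -0.41 (Acox2, -0.84 to 0.02, adjusted p = 0.824) and 0.59 (Acaa1b, -0.05 to 1.24, adjusted p = 0.841). For Ehhadh the interval was -0.97 to 0.54 with GW3965 and -0.60 to 0.99 with vehicle, wider than for any other enzyme in each treatment. The fit estimates 1 spread per gene from all groups, so the vehicle interval also carries the spread of GW3965 livers. On the log2 scale the SD of Ehhadh was 0.12 and 0.26 in Gata4LKO and control livers with vehicle. With GW3965 it was 0.62 and 1.01.

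**Figure D4:**
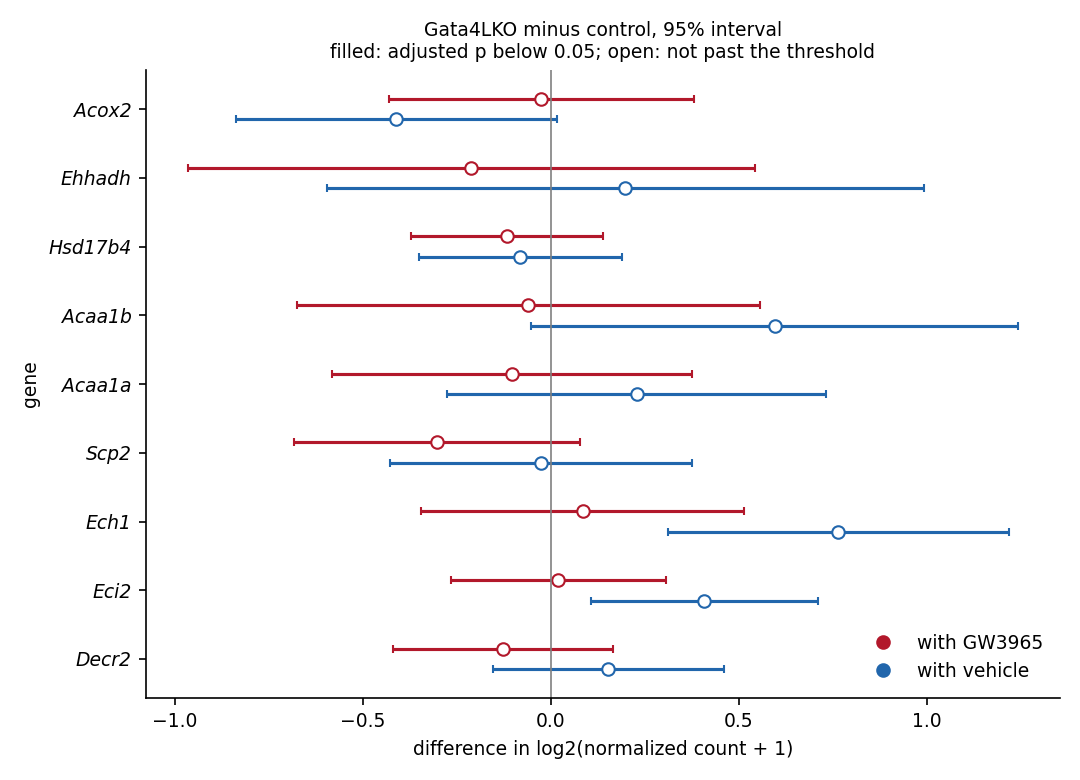
Difference in log2(normalized count + 1) between livers labelled Gata4LKO and control for the 9 enzymes, with GW3965 (upper of each pair) and with vehicle; bars are 95% intervals from the limma fit, and open circles did not pass an adjusted p of 0.05. With vehicle the intervals of Ech1 (0.31 to 1.22) and Eci2 (0.11 to 0.71) lie above 0, with adjusted p-values of 0.390 and 0.573.

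Among GW3965 livers, 3 of 9 enzymes were lower in every library with over 10% mitochondrial counts than in every other library, as were 8.12% of all genes; this split was not tested. There Acaa1a had 1229 to 2117 normalized counts in the 4 livers with over 10% mitochondrial counts and 2629 to 3268 in the other 5. Ech1 had 2169 to 2538 and 3018 to 3779, and Decr2 had 3260 to 3544 and 3561 to 4874, again without overlap. In vehicle livers the 1 library over 10% had 1531 normalized counts of Acaa1a, below the 1883 to 2406 of the other 7, but its 2573 of Ech1 and 3262 of Decr2 lay within theirs (1226 to 3882 and 2328 to 3694). Among GW3965 livers Ehhadh (16347 to 59114 and 13521 to 45172) and Acaa1b (15738 to 36286 and 14571 to 33516) overlapped. Without the 5 libraries over 10%, Acaa1a passed the test averaged over genotypes, with a GW3965 difference of 0.39 (adjusted p = 0.0311), against 0.10 (adjusted p = 0.782) with them. The GW3965 calls of Ehhadh and Acaa1b held without those libraries (2.26 and 1.90 in Gata4LKO livers, 2.52 and 2.65 in control livers, highest adjusted p 0.0260).

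**Figure D5:**
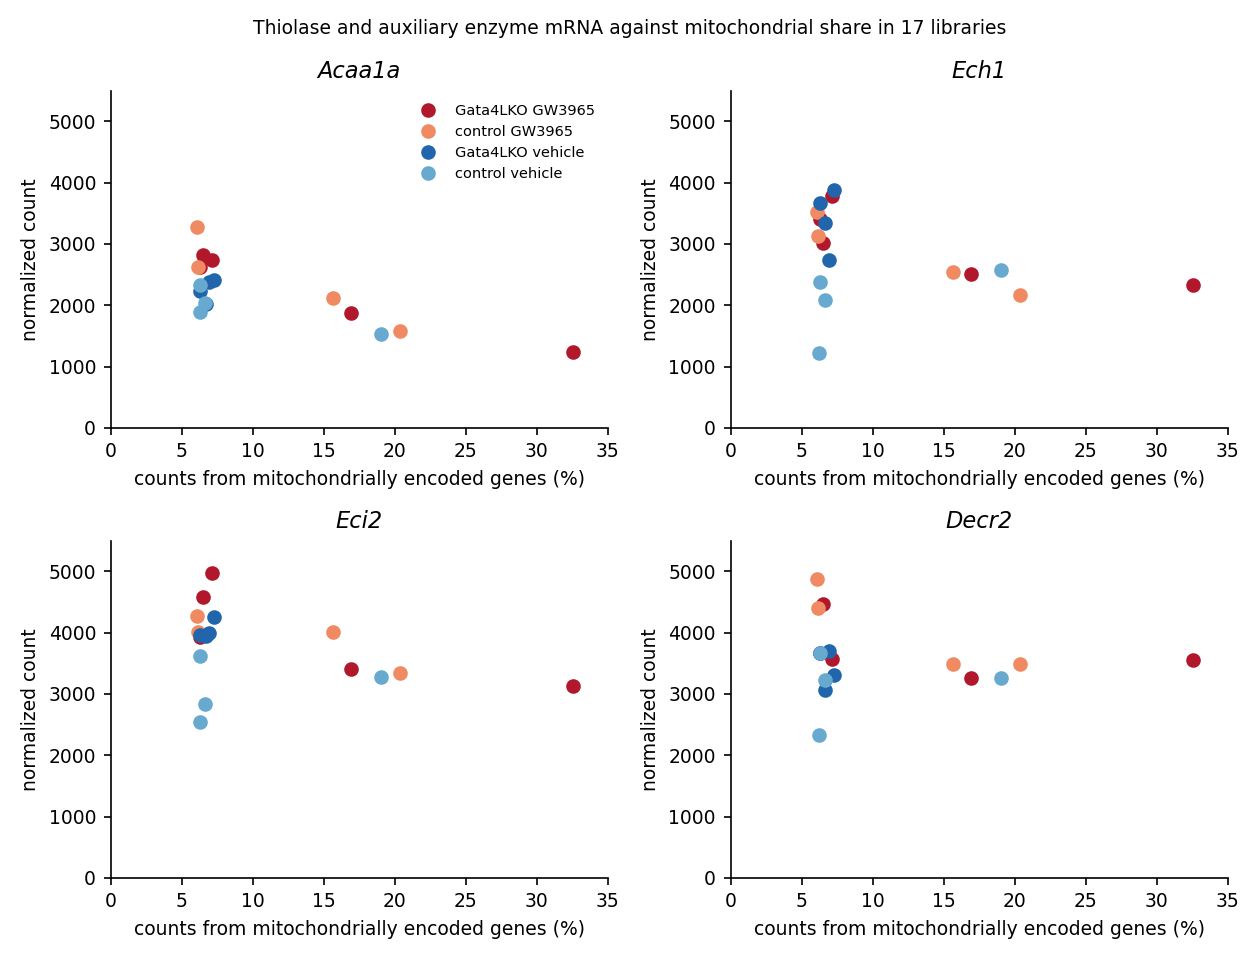
Normalized counts of Acaa1a, Ech1, Eci2 and Decr2 against the percentage of counts from mitochondrially encoded genes in 17 libraries, coloured by group. The 4 GW3965 libraries beyond 15% have less Acaa1a (1229 to 2117) than the 5 others (2629 to 3268), and the same holds for Ech1 and Decr2.

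Around these enzymes, 44 other peroxisomal genes on the lists used here were tested: the remaining oxidases and auxiliary enzymes, substrate import, product export, peroxide removal and biogenesis. With GW3965 none of the 44 was called in Gata4LKO livers (12 at an unadjusted p under 0.05, where 12% of all genes had one), 3 were called higher and 0 lower in control livers (0.605% of all genes were called higher), and 6 higher and 0 lower averaged over genotypes (1.34% of all genes higher). Their median log2 difference averaged over genotypes was -0.04, against 0.16 for the 9 enzymes and -0.01 for all genes. Among the 6, named after their values were seen, were the fatty acyl-CoA transporter Abcd3 (0.57, adjusted p = 0.00142), the acyl-CoA synthetase Acsl1 (0.76, 0.00879), the carnitine acetyltransferase Crat (1.08, 0.0126) and the thioesterases Acot3 (2.02, 0.0106) and Acot4 (0.90, 0.00303). None of the 18 peroxisome biogenesis genes, the 4 genes of peroxide removal and matrix proteolysis or the 17 genes of mitochondrial beta-oxidation was called in any comparison of treatment or genotype by limma; at an unadjusted p under 0.05, averaged over genotypes, they numbered 4, 0 and 3 (15.3% of all genes had one).

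Of 18 microsomal and other PPARA target genes, 1 was called higher with GW3965 in Gata4LKO livers, 2 in control livers and 6 averaged over genotypes, none lower, where 0.202%, 0.605% and 1.34% of all genes were called higher. Among them were the cytosolic thioesterase Acot1 (2.61 in control livers, adjusted p = 0.0109; 2.10 averaged), its mitochondrial relative Acot2 (1.57 in Gata4LKO livers, 1.92 in control livers) and the fatty acid omega-hydroxylases Cyp4a10 (2.02 averaged, adjusted p = 0.0148) and Cyp4a14 (2.23 averaged, adjusted p = 0.0282). Ppara itself differed by 0.02 in Gata4LKO livers and 0.07 in control livers with GW3965, and 0 of 11 receptor and coactivator genes were called (1 at an unadjusted p under 0.05 averaged over genotypes). Of 10 LXR targets, 5 rose in Gata4LKO livers, 9 in control livers and 10 averaged over genotypes, beside the same shares of all genes. The desaturase Scd1 differed by 3.15 in Gata4LKO and 3.10 in control livers, its relative Scd2 by 2.38 and 2.53, and the sterol exporter Abcg1 by 1.44 and 1.88. The differences of Ehhadh given above, 2.20 and 2.61, stand beside these. Srebf1, a regulator of lipogenesis, rose by 2.26 in control livers, and the partner sterol transporters Abcg8 and Abcg5 rose by 1.25 and 1.14 in Gata4LKO livers. In Gata4LKO livers Srebf1 averaged 4330 normalized counts with GW3965, against 1409 with vehicle. These 3 genes are named where they were among the 6 largest called differences of listed genes. A response limited to that genotype is not meant. Of 5 genes of bile acid synthesis and conjugation, the pathway that Acox2, Hsd17b4 and Scp2 also serve, 0 rose and 2 fell averaged over genotypes, where 0.441% of all genes were called lower: Baat, which joins bile acids to amino acids (-0.40, adjusted p = 0.0197), and the sterol hydroxylase Cyp8b1 (-1.62, adjusted p = 0.0237), named after their values were seen. Baat was also lower in livers labelled Gata4LKO averaged over treatments (-0.50, adjusted p = 0.0190; 0.179% of all genes were called lower).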

How the data were processed

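The authors deposited 1 table of normalized counts, a signal in which the reads of each gene are divided by a size factor of the library, and tables of comparisons with a log2 fold change and p-values, per the file headers. In the values, 100% came out as whole multiples of 1 read within 0.05 read. The submitters' processing notes name STAR 2.6.0c, mm10, FastQC and DESeq2, while the sources used here do not give the read counter, annotation or strand setting. Per the labels' protocols, RNA was extracted with TRIzol and RNeasy and sequenced from KAPA mRNA Hyperprep libraries.

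Groups were compared by limma-trend (limma 3.58.1, R 4.3.3) on log2(normalized count + 1), fitted to all 17 libraries with 1 coefficient per group, Benjamini-Hochberg adjustment over 13379 genes and a call at an adjusted p below 0.05. The pseudocount of 1 understates changes of low genes, which these enzymes are not. Levels per kb used the APPRIS principal transcript of GENCODE M21. Correlations were tested by enumerating all permutations of libraries within their group with numpy 2.4.6 (Python 3.11.15), with adjustment in scipy 1.17.1. Alternatives were pseudocounts of 0.5 and 5, no filter, TMM scaling, equal totals without mitochondrial genes, edgeR 4.0.16 and DESeq2 1.42.0 on recovered reads, only the groups compared, Gm5345 presence as a term (a normalized count above 10), and leaving out libraries. The limma fit was tested on simulated data.

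All 9 enzymes were described in every comparison. Of other listed genes, up to 6 per comparison with the largest difference among those called were named, together with Gata4, Abca1, Srebf1 and the 5 genes most like Ehhadh; exceptions are stated, and 1 gene that the rule names is not reported here. The enzymes and lists were chosen with earlier results of these data known. Groups followed sample titles. The series text gives the age as 9 weeks and the labels as 11. Of the 9 enzymes, 8 had a promoter window used, and Hsd17b4 had none used here. No library column was left unmatched.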

Additional observations from a re-analysis of the deposited data

Results flagged for a closer look

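In 36 combinations of enzyme and group, the highest and lowest library were compared with the rest of their group by Dixon's criterion, which chance exceeds in about 1 of 20 groups, and 4 exceeded it. Control vehicle replicate 1 was the highest of its group for 3 of them: 6092.83 normalized counts of Ehhadh (next highest 4384.32), 6978.4 of Acaa1b (next highest 3309.56) and 11286.2 of Hsd17b4 (next highest 8563.9). It is also the control vehicle library with 19.0% of counts from mitochondrially encoded genes; the part of that share in these values was not tested. Gata4LKO vehicle replicate 6 was the highest of its group for Eci2, at 4253.68 normalized counts (next highest 3986.93).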

How the results depend on the processing

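No paired analysis was run, because the labels used here give no pairing of mice. The replicate numbers are running library numbers and do not bear on it. Outside the fits that leave out 1 library, 494 differences of single enzymes kept direction and side of the threshold, 24 changed sign, 3 lost the call and 1 gained it; 65 of 67 counts of called enzymes stayed within 1.5 times. No difference that changed sign passed the threshold in any fit, and the cause was not tested. The count for GW3965 in control livers was 1 when only the groups compared were fitted, and the count in Gata4LKO livers was 0 with Gm5345 presence as a term. Scaling to equal totals without mitochondrial genes moved the median of all genes by 0.113 between genotypes with vehicle and by 0.119 with GW3965. Under it Hsd17b4 and Scp2 changed sign with vehicle (0.0319 and 0.0878), and Acox2, Acaa1a, Acaa1b and Hsd17b4 with GW3965 (0.0942, 0.0170, 0.0598 and 0.0033). Without the libraries over 10% mitochondrial, the sign changed between genotypes for Hsd17b4 and Scp2 with vehicle (0.0277 and 0.0594) and for Acox2, Ehhadh, Acaa1b and Hsd17b4 with GW3965 (0.34, 0.0612, 0.12 and 0.0443). The same fit changed it for Acaa1a, Ech1 and Eci2 with GW3965 in Gata4LKO livers (0.27, 0.0053 and 0.15), for Hsd17b4 in the interaction (0.0166) and for Acox2 averaged over genotypes (-0.12). With the Gm5345 term it changed for Acaa1b between genotypes with GW3965 (0.000896), for Acox2, Eci2 and Scp2 with GW3965 in Gata4LKO livers (-0.0248, 0.0559 and 0.0167) and for Acox2 in the interaction (-0.0024) and averaged over genotypes (-0.0237). DESeq2 changed it for Acaa1a in Gata4LKO livers (0.0017). Leaving out 1 library at a time, the Gata4LKO count ranged from 1 to 2, Ehhadh from 1.98 to 2.34 in Gata4LKO and 2.26 to 2.97 in control livers, and Acaa1b from 1.67 to 1.98 and 2.25 to 2.77. Ranges that crossed 0, between genotypes with vehicle, were -0.13 to 0.0277 (Hsd17b4) and -0.22 to 0.0594 (Scp2). Between genotypes with GW3965 they were -0.24 to 0.10 (Acox2), -0.57 to 0.14 (Ehhadh), -0.29 to 0.10 (Acaa1a), -0.26 to 0.18 (Acaa1b), -0.0363 to 0.20 (Ech1) and -0.0640 to 0.10 (Eci2). With GW3965 they were -0.28 to 0.0617 (Acox2, control), -0.16 to 0.14 (Acaa1a, Gata4LKO), -0.12 to 0.0507 (Eci2, Gata4LKO), -0.0226 to 0.15 (Acox2, averaged) and -0.0370 to 0.12 (Scp2, averaged), and -0.15 to 0.0584 for Hsd17b4 in the interaction. Over all genes the count of calls moved by more than 1.5 times in some fits. With GW3965 in Gata4LKO livers it was 33, against 195 by DESeq2 and 1 with the Gm5345 term. With GW3965 in control livers it was 106, against 228 by DESeq2, 57 with no filter, 63 without the libraries over 10% mitochondrial, 19 with only the groups compared and 12 with the Gm5345 term. Averaged over genotypes it was 238, against 527 by DESeq2. Between genotypes with GW3965 it was 8, against 80 by DESeq2, 5 by edgeR, 1 with only the groups compared and 2 with the Gm5345 term. With vehicle it was 2, against 50 by DESeq2, 21 with only the groups compared, 14 without the libraries over 10% mitochondrial, 4 with equal totals and 0 with the Gm5345 term. Averaged over treatments it was 30, against 129 by DESeq2, 18 with equal totals and 8 with the Gm5345 term. For the interaction it was 2, against 26 by DESeq2, 1 without the libraries over 10% mitochondrial and 0 by edgeR and with the Gm5345 term.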
